A study of Mus musculus with 35 samples.

Results

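Gene expression was compared between 11 samples of basal cells and 12 samples of luminal cells, out of 35 samples of sorted mouse mammary cells, each run on its own 1-colour Affymetrix array. The samples were assigned by the sorting gates in their labels: basal cells were taken as CD24+Low and Sca1-, in a CD49fLow and a CD49fHigh gate, and luminal cells as CD24+High, in a Sca1- and a Sca1+ gate. CD24 and Sca1 are surface proteins of the gland's epithelial cells, and CD49f is the protein of Itga6, integrin alpha 6.

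The basal samples were 3 parous and 3 nulliparous CD49fLow samples and 2 parous and 3 nulliparous CD49fHigh samples. The luminal samples were 3 of each history in either Sca1 gate. Mating at an age of 42 days, pregnancy, 21 days of lactation and 40 days of involution, when the milk-producing tissue regresses, preceded collection from the parous mice. Nulliparous mice were virgins of the same age. Glands (the 4th pair) of 5 mice were pooled for each sample, and a replicate is therefore such a pool; strain and genotype are not stated in the labels used here. CD49fHigh samples came from 2000 cells and all others from 10000 cells, and all RNA was amplified before labelling. The remaining 12 samples, 6 of total epithelial and 6 of stromal cells, entered the fit and are given as landmarks.

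The mammary ducts and alveoli are built of a pair of cell layers. Basal cells lie on the basement membrane, the sheet of laminin and collagen around the epithelium; most are myoepithelial cells, which contract under oxytocin to expel milk, and basal fractions also hold cells able to regrow a gland on transplantation. Luminal cells line the lumen, are joined by tight junctions, and include cells that carry the estrogen and progesterone receptors and cells that can mature into milk secretors. In bulk samples such as these, a change in the share of a cell type and a change in RNA per cell cannot be told apart.

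All levels below are log2 values as deposited, and all differences are basal minus luminal in log2 units, with each of the 4 basal and 4 luminal groups of gate and history given the same weight. Every gene was tested in 1 limma fit over 19937 genes, and a gene was called where the Benjamini-Hochberg adjusted p was under 0.05. Levels of different genes come from different probes and are not compared with each other. Replicates of 1 group correlated at r = 0.977 to 0.991 across genes for the samples of 10000 cells and at 0.963 to 0.978 for those of 2000 cells, and the number of arrays limits the precision.

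The 4 marker genes matched the gates in every sample. Krt5, a keratin of basal cells, measured 11.28 to 11.87 in the basal samples (median 11.62), against 6.11 to 8.04 in the luminal samples (median 6.79). The smooth muscle actin gene Acta2 measured 11.45 to 11.96 in the basal samples (median 11.69), against 6.23 to 8.41 in the luminal samples (median 7.32). Neither gene's groups overlapped, and the differences were 4.64 (SE 0.09, adjusted p = 2.1e-25) for Krt5, which is 25.0-fold, and 4.47 (SE 0.09, adjusted p = 2.2e-25) for Acta2, which is 22.1-fold. Krt19, a keratin of simple epithelia, measured 7.06 to 9.80 in the basal samples (median 8.28), against 10.71 to 11.99 in the luminal samples (median 11.51). The tight junction gene Cldn3 measured 6.66 to 7.60 in the basal samples (median 7.07), against 8.43 to 8.91 in the luminal samples (median 8.74). Both were lower in every basal sample than in any luminal sample, with differences of -3.03 (SE 0.18, adjusted p = 3.64e-14) and -1.56 (SE 0.09, adjusted p = 4.97e-15). Stromal samples separated the 2 basal markers: Krt5 measured 5.65 to 7.88 there, within or below the luminal range, whereas Acta2 measured 10.02 to 10.69, above every luminal sample.

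**Figure D1:**
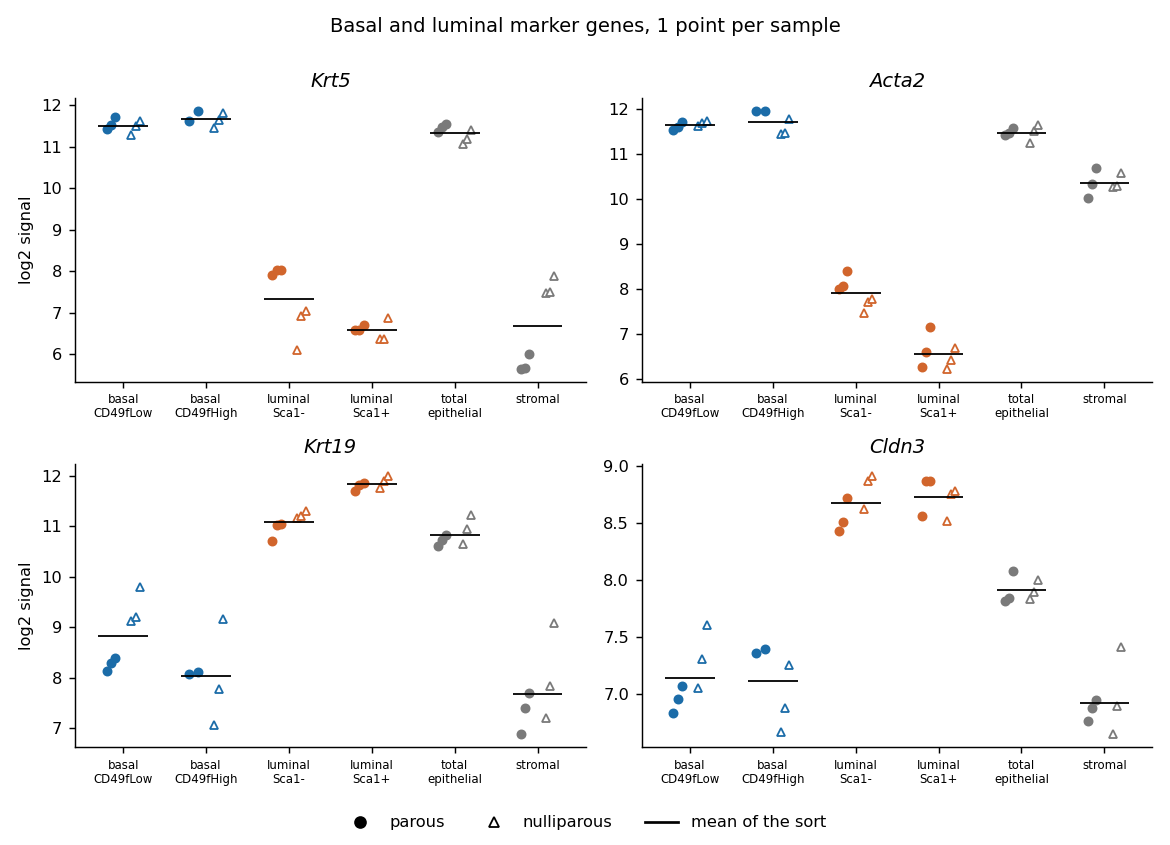
Log2 signal (vertical axis) of 4 marker genes in each sample, by sort (horizontal axis); filled circles are parous, open triangles nulliparous samples and lines the mean of a sort. Krt5 and Acta2 lie higher in all 11 basal samples than in all 12 luminal samples, Krt19 and Cldn3 lower, and Acta2 but not Krt5 is also high in stromal samples.

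Across all genes, 6983 of 19937 (35.0%) were called, 3091 higher in basal cells (15.5%) and 3892 lower (19.5%). A further quantile normalization of the deposited values turned that balance round, to 4292 higher and 3320 lower, so the numbers of genes in either direction depend on the scaling. In all, 1039 genes (5.21%) were called with a difference of at least 1 log2 unit, 561 higher (2.81%) and 478 lower (2.4%). A stricter class, called genes whose 11 basal values all lay beyond all 12 luminal values, held 932 genes (4.67%), 503 of them higher (2.52%) and 429 lower (2.15%). Counts of list members below stand beside 15.5% of all genes called higher and 19.5% called lower. No list was tested against these shares.

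The largest rises without overlap included ion channel and contractile genes. Scn7a, a sodium channel gene, measured 9.45 to 11.74 in the basal samples (median 11.37), against 3.99 to 7.65 in the luminal samples (median 5.25), a difference of 5.61 (SE 0.19, adjusted p = 6.41e-20). Cnn1, which encodes the actin-binding protein calponin, measured 11.06 to 12.29 in the basal samples (median 11.81), against 5.39 to 8.09 in the luminal samples (median 6.11) and differed by 5.23 (SE 0.10, adjusted p = 2.1e-25), or 37.6-fold. Cacna2d1, a calcium channel subunit gene, was higher by 4.65 (SE 0.15), the matrix protein gene Postn by 4.59 (SE 0.17), the chemokine gene Cxcl14 by 4.29 (SE 0.08), and Pdpn, the gene of podoplanin, by 3.91 (SE 0.14). Egfl6, a secreted EGF-repeat protein gene, was higher by 3.88 (SE 0.13).

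The largest falls were led by Tph1, the gene of the rate-limiting enzyme of serotonin synthesis. It measured 4.5 to 7.18 in the basal samples (median 5.69), against 7.58 to 11.07 in the luminal samples (median 9.73), a difference of -4.11 (SE 0.17, adjusted p = 3.16e-18). The antioxidant enzyme gene Gpx3 fell by 3.59 (SE 0.23), the interleukin-18 receptor gene Il18r1 by 3.45 (SE 0.14), the haptoglobin gene Hp by 3.24 (SE 0.20), and the mechanically gated channel gene Piezo2 by 3.19 (SE 0.17). Lcp1, best known as an actin-bundling protein of blood cells, fell by 3.46 (SE 0.21) and measured 8.42 to 10.05 in the luminal samples. None of the 8 lymphocyte markers followed was called by limma, and none had an unadjusted p under 0.05. Their mean level was 4.67 to 5.1 in basal samples, against 4.54 to 5.05 in luminal samples. These levels are low on the array, so the lack of a call says little about lymphocyte RNA. Whether RNA of blood cells had a part in the Lcp1 levels was not tested.

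**Figure D2:**
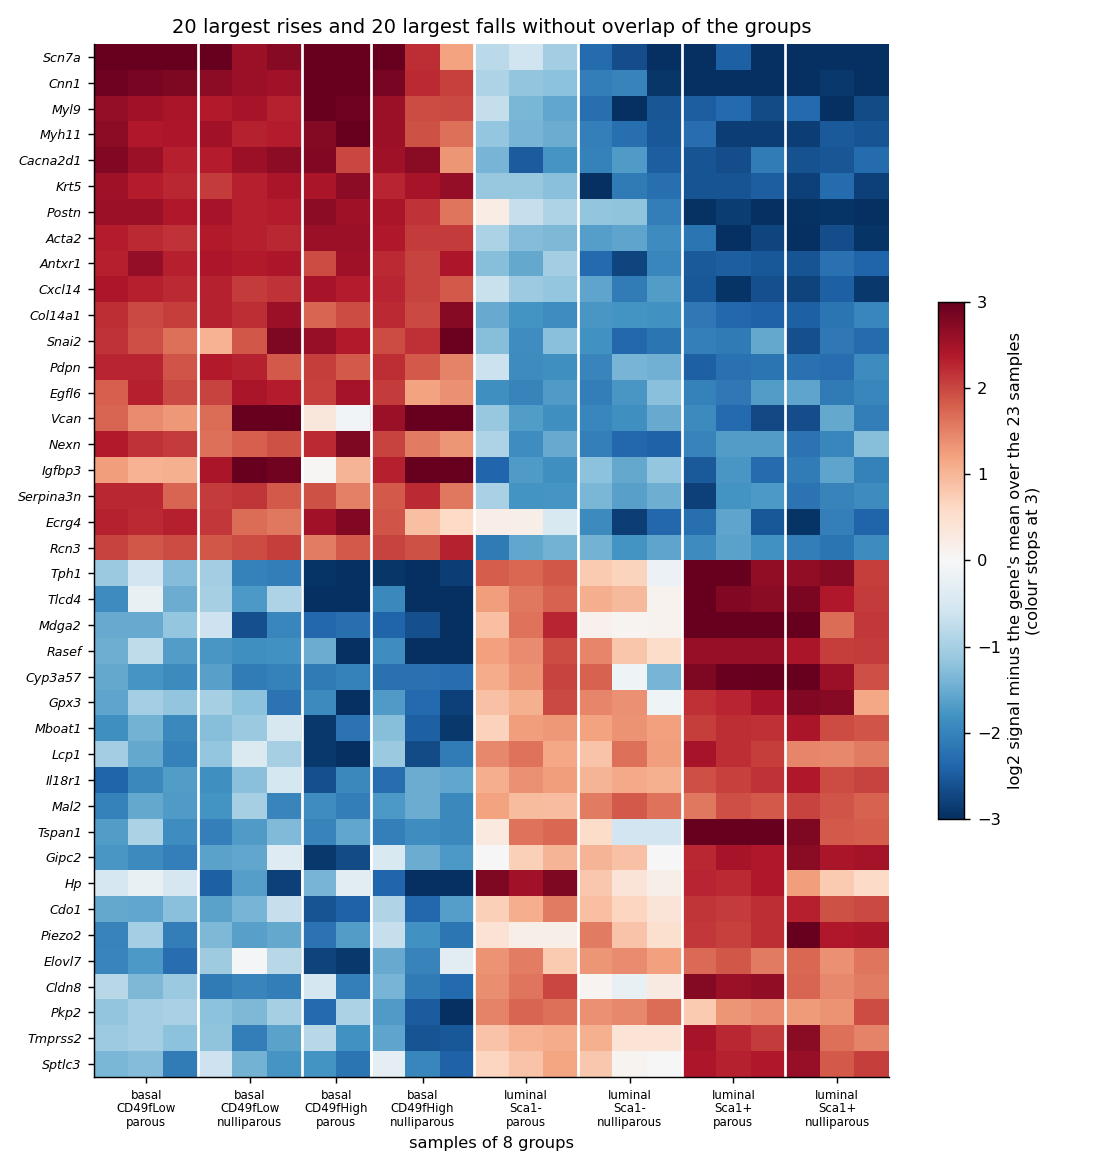
Log2 signal minus the gene's mean over the 23 basal and luminal samples (colour) for the 20 largest rises and 20 largest falls without overlap (rows) in the samples of 8 groups (columns). All 11 basal columns are on one side of all 12 luminal columns for each gene, and Tph1, Mdga2 and Tspan1 are higher in Sca1+ than in Sca1- samples.

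Many genes that mark basal cells here were high in stroma too. Of the 503 genes higher in basal cells without overlap, 272 (54.1%) had all 6 stromal samples above all 12 luminal samples, against 7.12% of all genes, and 198 (39.4%) had all stromal samples below all basal samples, against 3.49% of all genes. Among the 20 largest rises, 16 were above the luminal range in all stromal samples. Scn7a measured 10.69 to 10.95 in stroma, Postn 11.31 to 12.07 and Pdpn 10.04 to 10.83. Egfl6 measured 4.08 to 4.43 there, close to its luminal range of 3.71 to 4.59. Genes lower in basal cells were low in stroma as well. For 317 of the 429 without overlap (73.9%), all stromal samples lay below all luminal samples, against 6.81% of all genes. The classes without overlap were chosen for a gap between the basal and luminal ranges, and that choice alone raises such shares. The shares over all genes had no such filter and are therefore not a like background.

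Markers of fibroblasts were set beside the comparison. Of 10 fibroblast genes, 4 were called higher in basal cells and none lower: Lum by 0.99, Mfap5 by 0.65, Dcn by 0.48 and Col1a2 by 0.25. Their mean level over the 10 genes was 5.84 to 7.17 in basal samples, against 5.79 to 6.24 in luminal samples, and 10.02 to 10.49 in stromal samples. Within the basal samples it was 5.84 to 6.47 in CD49fHigh samples and 6.19 to 7.17 in CD49fLow samples. The luminal gates lay apart for Dcn, which measured 9.39 to 10.73 in basal, 7.8 to 9.46 in Sca1- and 8.95 to 11.19 in Sca1+ samples. Nulliparous Sca1+ samples (10.77 to 11.19) lay above every basal sample for this gene. Pdgfra, Col1a1 and Col3a1 were not called, with differences of 0.30, 0.21 and 0.18, but each gained a call in at least 1 alternative analysis. By the unadjusted limma p under 0.05, 6 of the 10 fibroblast genes were higher in basal cells and none was lower. The part of fibroblast RNA in the matrix and mesenchymal results below was not tested.

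Among pericyte and vascular smooth muscle markers, 3 of 10 were called higher and 1 lower, against 15.5% and 19.5% of all genes. The counts of markers in this paragraph were not tested against those shares. Mcam, a gene shared by smooth muscle and other contractile cells, rose by 1.71 (SE 0.08), while the pericyte genes Rgs5 and Cspg4 were not called (0.29 and -0.11). The list's mean level was 5.74 to 6.12 in basal samples, against 5.62 to 5.88 in luminal and 7.21 to 7.56 in stromal samples. Endothelial markers were called higher for 2 of 10 and lower for 1, and macrophage and dendritic cell markers higher for 6 of 13, by at most 0.68 (H2-Aa). The macrophage and dendritic list averaged 5.6 to 6.7 in basal samples, against 5.41 to 6.16 in luminal samples. Of 6 adipocyte markers 1 (Lep) was called higher, and of 6 skeletal muscle markers 1 was called higher and 1 lower. Of 8 glial markers, 2 were called higher and 2 lower, with Scn7a and Erbb3 among them, and the single red cell marker was called lower by 0.174 log2 units.

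Keratins form the intermediate filaments of epithelia, and pairs of them mark layers. Of 7 basal and stratified keratins, 4 were higher in basal cells and 1 was lower. Krt14 measured 10.91 to 11.22 in the basal samples (median 11.13), against 6.47 to 8.80 in the luminal samples (median 8.16) and rose by 3.20 (SE 0.11, adjusted p = 1.67e-19). Krt17 rose by 3.31 (SE 0.10) and Krt15 by 1.71 (SE 0.16). Krt6a, although often listed with basal keratins, fell by 2.23 (SE 0.22, adjusted p = 1.2e-09), with levels of 5.19 to 7.85 in the basal samples (median 6.19), against 6.73 to 10.09 in the luminal samples (median 8.56). Its luminal level was 6.73 to 8.15 in Sca1- samples and 8.96 to 10.09 in Sca1+ samples. Krt6b and Krt16 were not called (-0.18 and -0.41).

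Of 6 simple keratins, 4 were lower in basal cells without overlap and 1 was higher. Krt7 fell by 2.75 (SE 0.18), Krt18 by 1.87 (SE 0.25) and its partner Krt8 by 1.37 (SE 0.20). Krt8 measured 10.43 to 11.49 in the basal samples (median 11.21), against 12.36 to 12.65 in the luminal samples (median 12.51), and the highest value in the whole table was 13.28. Krt23 moved against its list and rose by 2.46 (SE 0.19, adjusted p = 1.07e-11), and Krt20 was not called (0.13).

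The contractile apparatus was the list with the largest median. Of 23 measured genes, 21 were higher in basal cells, 15 of them without overlap, and none was lower; their median difference was 2.01, against 0.004 over all genes. The smooth muscle myosin gene Myh11 measured 10.48 to 11.97 in the basal samples (median 11.27), against 6.02 to 7.68 in the luminal samples (median 6.44) and rose by 4.70 (SE 0.10, adjusted p = 9.13e-25). Myl9, its regulatory light chain partner, rose by 4.78 (SE 0.11), Actg2, the enteric smooth muscle actin gene, by 3.49 (SE 0.11), Tagln by 3.47 (SE 0.12) and the tropomyosin gene Tpm2 by 2.84 (SE 0.12). The intermediate filament gene Des rose by only 0.23 (SE 0.07), a call lost without the CD49fHigh samples, and Pln, the gene of the calcium pump regulator phospholamban, was not called (-0.18). In 16 of the 23 genes all stromal samples lay below all basal samples, against 3.49% of all genes. In 12 all stromal samples lay above all luminal samples, against 7.12% of all genes.

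Genes that regulate contraction changed less uniformly. Of 18 measured, 11 were higher, 2 lower and 5 not called, with a median of 0.50. Prkg1, the cGMP-dependent kinase gene, measured 8.13 to 9.57 in the basal samples (median 8.91), against 4.58 to 7.35 in the luminal samples (median 5.74) and rose by 3.02 (SE 0.10, adjusted p = 6.96e-20). The potassium channel subunit gene Kcnmb1 rose by 2.56 (SE 0.16), the calcium channel gene Cacna1c by 1.76 (SE 0.11) and Ppp1r14a, an inhibitor of myosin phosphatase, by 1.72 (SE 0.14). Oxtr, the oxytocin receptor gene, rose by 0.90 (SE 0.12, adjusted p = 2.59e-07), but its levels of 5.49 to 7.53 in the basal samples (median 6.26), against 5.19 to 5.93 in the luminal samples (median 5.54) overlapped. Plcb4 fell by 0.86 (SE 0.10) and Rhoa by 0.22 (SE 0.04).

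Serum response factor binds a 10-base DNA element, the CArG box, in many smooth muscle genes. Within 250 bases before to 50 after the start (RefSeq promoters, GRCm38.p6), both strands searched, the CArG box was present in 4 of 20 contractile genes with a promoter sequence, against 254 of 15613 genes measured (1.63%). Those 4 were Cnn2, Myl9, Myl6 and Vcl, of which Vcl was not called (-0.02). The Myl9 window is shown because that gene had the largest rise of the 4, with the box in capitals, 161 bases before the start. The motif was chosen with the expression values known, and a match is a description of the letters only.

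Myl9 (chr2:156775214-156775513, plus strand): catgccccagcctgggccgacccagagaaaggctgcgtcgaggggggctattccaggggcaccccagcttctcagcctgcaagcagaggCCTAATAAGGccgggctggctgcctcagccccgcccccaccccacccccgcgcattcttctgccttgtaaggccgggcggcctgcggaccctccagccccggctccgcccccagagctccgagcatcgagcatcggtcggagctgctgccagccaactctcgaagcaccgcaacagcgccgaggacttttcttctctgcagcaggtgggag

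Basal transcription factors were led by Snai2 and Trp63. Snai2, a zinc finger repressor of epithelial genes, measured 8.94 to 10.85 in the basal samples (median 10.06), against 5.26 to 6.65 in the luminal samples (median 5.81), a difference of 4.14 (SE 0.16, adjusted p = 2.51e-18). Trp63, the p53 relative that sustains basal layers of many epithelia, measured 9.34 to 10.35 in the basal samples (median 9.76), against 6.06 to 6.71 in the luminal samples (median 6.56), a difference of 3.35 (SE 0.11, adjusted p = 6.41e-20). Stromal samples set the pair apart: Snai2 measured 8.16 to 8.87 there and Trp63 6.22 to 6.93. Of 21 listed factors, 13 were higher, 2 lower and 6 not called. Egr2 rose by 2.42 (SE 0.09), Mef2c by 1.83 (SE 0.09), Etv5 by 1.78 (SE 0.13) and Id4 by 0.88 (SE 0.07). Other factors named in epithelial-mesenchymal transition showed small or no differences: Zeb2 rose by 0.57, Twist1 by 0.30, and Zeb1 (0.12) and Snai1 (-0.06) were not called. Zeb1 measured 4.63 to 5.90 in basal samples, against 8.94 to 9.58 in stroma, and Twist1 5.54 to 6.11 in basal samples, against 8.17 to 8.77 in stroma. Srf itself fell by 0.48 (SE 0.06) and its cofactor gene Mrtfb by 0.78 (SE 0.12), and Myocd, another cofactor, was not called (0.08).

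Factors listed as luminal divided. Of 23, 10 were lower in basal cells, 7 higher and 6 not called. The ETS factor gene Ehf measured 6.46 to 7.79 in the basal samples (median 6.86), against 8.31 to 10.08 in the luminal samples (median 9.13) and fell by 2.29 (SE 0.18). The progesterone receptor gene Pgr fell by 2.30 (SE 0.14), Grhl1 by 1.67 (SE 0.10), Foxa1 by 1.67 (SE 0.12) and the estrogen receptor gene Esr1 by 1.43 (SE 0.10), all without overlap. In the other direction, Tfap2c rose by 1.83 (SE 0.09, adjusted p = 2.97e-16), measuring 7.42 to 8.63 in the basal samples (median 7.97), against 5.32 to 7.23 in the luminal samples (median 6.05), and Runx1 rose by 0.81 (SE 0.06), also without overlap. Mybl1 rose by 1.15 and Cebpb by 0.62. Gata3, a known regulator of the luminal lineage, measured 8.92 to 9.78 in the basal samples (median 9.26), against 8.23 to 9.50 in the luminal samples (median 9.06). Its difference of 0.31 (SE 0.12, adjusted p = 0.0478) was positive, but the call was lost in 19 of 33 alternative analyses, and Grhl2 (0.13) was not called.

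Tight junctions seal the lumen, and their genes were the most uniform group in the luminal direction. Of 20 measured, 19 were lower in basal cells, 11 of them without overlap, and none was higher; the median difference was -1.07. Cldn8 measured 4.47 to 6.27 in the basal samples (median 4.81), against 6.56 to 9.55 in the luminal samples (median 8.38) and fell by 3.08 (SE 0.14), or 8.47-fold. Cldn7 fell by 2.85 (SE 0.20), occludin (Ocln) by 2.36 (SE 0.23), cingulin (Cgn) by 2.32 (SE 0.12), tricellulin (Marveld2) by 2.32 (SE 0.19) and Cldn4 by 2.16 (SE 0.20). Cldn12 alone was not called (0.34, SE 0.18). For 17 of the 20, all stromal samples lay below all luminal samples, against 6.81% of all genes.

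Snail-family repressors, Snai2 among them, bind the E-box CAGGTG. This motif (either strand, so also CACCTG) stood in the promoter window of 12 of 17 tight junction genes (70.6%) and of 4 of 5 simple keratins (80.0%), against 22.2% of 15613 genes measured. It was present in 119 of 321 genes lower in basal cells without overlap (37.1%) and in 81 of 373 higher without overlap (21.7%), and median GC content was 61.0% and 63.0% in these classes, against 57.5% over all genes. Among all genes called lower it stood in 25.4%, against 19.8% of those called higher and 21.8% of those not called. The 4 keratins were Krt7, Krt8, Krt18 and Krt23, the last of which was higher in basal cells. The motif was as common in hormone-sensing genes (7 of 10, 70.0%). It was also as common in lymphocyte markers (4 of 5, 80.0%), a list with no called gene. Both motif and lists were chosen with the values known, no factor binding was measured, and whether the letters have a part in the differences was not tested. The windows of Cldn3, Cldn4, Cldn7 and Krt18 are shown with the E-box in capitals, as examples of 3 claudins and 1 keratin that fell. Other genes with the motif fell more, Krt7 more than Krt18 and Ocln more than Cldn3. Cldn7 had 2 promoter windows, and a window with the most matches is shown.

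Cldn3 (chr5:134985964-134986263, plus strand): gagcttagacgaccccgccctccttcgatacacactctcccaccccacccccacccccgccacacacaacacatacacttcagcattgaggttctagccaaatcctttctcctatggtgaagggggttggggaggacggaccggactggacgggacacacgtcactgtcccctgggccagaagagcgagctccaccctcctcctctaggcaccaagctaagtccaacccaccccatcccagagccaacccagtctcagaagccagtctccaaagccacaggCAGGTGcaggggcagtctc
Cldn4 (chr5:134946885-134947184, minus strand): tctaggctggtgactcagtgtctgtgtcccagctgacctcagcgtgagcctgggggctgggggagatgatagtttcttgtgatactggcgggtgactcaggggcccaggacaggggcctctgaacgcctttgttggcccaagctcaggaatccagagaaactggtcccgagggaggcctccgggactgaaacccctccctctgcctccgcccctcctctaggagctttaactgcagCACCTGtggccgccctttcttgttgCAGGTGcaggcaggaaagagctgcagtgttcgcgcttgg
Cldn7 (chr11:69965171-69965470, plus strand): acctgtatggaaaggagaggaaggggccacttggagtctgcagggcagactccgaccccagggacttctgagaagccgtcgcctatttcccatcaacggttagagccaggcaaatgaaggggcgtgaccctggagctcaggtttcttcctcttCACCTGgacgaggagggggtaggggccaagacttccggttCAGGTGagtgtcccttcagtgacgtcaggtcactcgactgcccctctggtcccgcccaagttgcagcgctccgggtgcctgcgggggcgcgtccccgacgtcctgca
Krt18 (chr15:102027966-102028265, plus strand): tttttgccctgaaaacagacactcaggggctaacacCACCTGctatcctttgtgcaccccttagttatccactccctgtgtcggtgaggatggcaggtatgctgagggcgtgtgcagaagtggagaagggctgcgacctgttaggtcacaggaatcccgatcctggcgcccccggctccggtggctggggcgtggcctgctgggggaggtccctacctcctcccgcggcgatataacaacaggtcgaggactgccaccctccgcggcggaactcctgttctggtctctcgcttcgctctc

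The letters stand 32 bases after the start in Cldn3, 14 before and 12 after it in Cldn4, 97 and 57 before it in Cldn7, and 214 before it in Krt18, counted from the first base of each match.

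Adhesion junction genes moved in both directions. Of 21 genes, 9 were higher in basal cells and 10 lower. P-cadherin (Cdh3) measured 8.94 to 9.56 in the basal samples (median 9.31), against 5.32 to 6.28 in the luminal samples (median 5.71) and rose by 3.52 (SE 0.08, adjusted p = 5.3e-24), or 11.4-fold; in stroma it measured 5.26 to 5.84. E-cadherin (Cdh1) fell by 1.15 (SE 0.18) and Epcam by 0.88 (SE 0.20). Some desmosomal paralogs differed in direction. The plakophilin gene Pkp2 fell by 3.05 (SE 0.19) while Pkp1 rose by 1.00 (SE 0.09). Likewise Dsc2 fell by 2.55 and Dsg2 by 1.52, while Dsc3 rose by 0.97 and Dsg3 by 0.93. Dsg3 measured 4.09 to 7.56 in the basal samples (median 4.51), against 3.89 to 4.54 in the luminal samples (median 4.24), and the median basal sample lay within the luminal range. In parous mice neither was called, with differences of 0.24 for Dsc3 (adjusted p = 0.613) and 0.08 for Dsg3 (adjusted p = 0.912). In nulliparous mice the differences were 1.71 (adjusted p = 2.52e-05) for Dsc3 and 1.78 (adjusted p = 0.000415) for Dsg3, and the test between histories called neither (adjusted p = 0.0604 and 0.103). Perp, the gene of a desmosomal protein under p63 control in mouse skin, rose by 1.11 (SE 0.09) without overlap.

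Basement membrane and its receptors were mostly higher in basal cells. Of 26 basement membrane genes, 21 were higher and 1 was lower, 10 of the rises without overlap. The laminin chain genes Lama3 and Lama1 rose by 2.75 (SE 0.08) and 2.42 (SE 0.08), with stromal levels of 5.44 to 6.31 and 5.48 to 5.81, below all basal samples for both. Lamb1 rose by 1.87 and Lamb3 by 1.34, whereas Lama5 fell by 0.73 (SE 0.07). Sparc, a collagen-binding protein gene, rose by 3.63 (SE 0.09) and measured 11.20 to 11.59 in basal samples, against 11.51 or more in stroma.

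Of 21 integrin and hemidesmosome genes, 13 were higher and 4 lower. Itga1, a collagen receptor subunit, rose by 2.20 (SE 0.13), Itga9 by 2.01 (SE 0.09) and the hemidesmosomal collagen gene Col17a1 by 1.47 (SE 0.09). Itga6, whose protein was a sorting marker, measured 10.32 to 10.89 in the basal samples (median 10.78), against 9.92 to 10.29 in the luminal samples (median 10.12), a difference of 0.63 (SE 0.09). Its partners Itgb1 rose by 0.14 (SE 0.04), a call lost without parous CD49fHigh replicate 2, and Itgb4 was not called (-0.11). Itgb6 fell by 1.89 (SE 0.14) and the collagen receptor subunit Itga2 by 1.56 (SE 0.13).

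Interstitial matrix was higher for 21 of 25 genes and lower for 1, with a median of 0.55. Col14a1 rose by 4.16 (SE 0.08), Col12a1, another fibril-associated collagen gene, by 2.92 and the proteoglycan gene Bgn by 2.90. For 20 of these 25 genes, all stromal samples lay above all luminal samples, against 7.12% of all genes. Mesenchymal genes were higher for 12 of 15 and lower for none; vimentin (Vim) rose by 2.58 (SE 0.10), the gelatinase gene Mmp2 by 3.00 and the receptor kinase gene Axl by 2.23. Vim measured 9.82 to 10.97 in basal samples, against 7.01 to 9.12 in luminal and 11.26 to 11.53 in stromal samples. The fibroblast markers called above were also higher in basal cells. Between the basal gates, interstitial matrix averaged 7.31 to 7.69 in CD49fHigh and 7.35 to 7.76 in CD49fLow samples. Mesenchymal genes averaged 8.48 to 8.82 and 8.65 to 8.82 in the same order. The part of fibroblast RNA in these lists was not tested.

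Wnt signalling needs Frizzled receptors, and Lgr receptors for R-spondin amplify it. Of 20 receptor genes, 14 were higher in basal cells and 1 was lower. Lgr5 measured 7.18 to 9.02 in the basal samples (median 8.84), against 4.86 to 5.72 in the luminal samples (median 5.18), with a difference of 3.16 (SE 0.08, adjusted p = 9.19e-23). Lgr4 rose by 2.40, Fzd7 by 2.32 (SE 0.06) and Fzd3 by 1.85, and Fzd6 fell by 0.66. Of the 8 secreted inhibitors measured, 5 were higher: Wif1 by 2.59 (SE 0.10), Sfrp1 by 2.51 (SE 0.13), Dkk3 by 1.48, Sostdc1 by 1.38 and Sfrp2 by 0.51 (SE 0.16). The other inhibitors, Dkk1 (0.02), Dkk2 (-0.03) and Sfrp4 (0.12), were not called. Of 24 ligands and modulators, 9 were higher, 4 lower and 11 not called, and the ligand genes Wnt4 and Wnt7b fell by 0.47 and 0.44. Among 13 pathway targets, 8 were higher, Dact1 by 2.18 and Axin2 by 1.02, and Ccnd1, the cyclin D1 gene, fell by 0.91 (SE 0.11) without overlap.

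Among Notch pathway genes, 3 of 5 ligands were higher in basal cells and 3 of 4 receptors lower. Dll1 rose by 1.80 (SE 0.13), Jag1 by 1.51 (SE 0.13) and Jag2 by 1.00 (SE 0.08), while the receptors Notch1, Notch2 and Notch3 fell by 0.73, 0.53 and 0.46. The ligands Dll3 (0.04) and Dll4 (0.12) and the receptor Notch4 (-0.06) were not called. Dll1 measured 7.0 to 8.53 in the basal samples (median 7.77), against 5.66 to 6.47 in the luminal samples (median 6.06). The targets divided: Hes1 fell by 0.79 (SE 0.14) and Hey1 rose by 0.56 (SE 0.15). In all, 7 of 20 Notch genes were higher, 6 lower and 7 not called.

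In the EGF and ErbB list, neuregulin and its receptors differed in direction. Nrg1, a ligand of ErbB3 and ErbB4, measured 7.51 to 10.19 in the basal samples (median 9.23), against 4.35 to 6.73 in the luminal samples (median 5.46), a difference of 3.61 (SE 0.21, adjusted p = 2.35e-14), and 5.09 to 5.62 in stroma. Erbb3 measured 5.27 to 6.98 in the basal samples (median 6.09), against 8.48 to 9.38 in the luminal samples (median 8.84) and fell by 2.84 (SE 0.17), Erbb4 fell by 1.41 (SE 0.12) and Erbb2 by 0.63 (SE 0.14). The ligand gene Epgn fell by 2.36 (SE 0.20). Of the list's 16 genes, 5 were higher and 7 lower.

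Of 13 FGF pathway genes, 10 were higher and none lower, mostly by small amounts; the feedback genes Dusp6 (1.41, SE 0.10) and Spry2 (1.03, SE 0.13) had the largest differences. The IGF axis was higher for 10 of 13 genes and lower for 1 (Igf2r, -0.56). Igfbp3 rose by 3.73 (SE 0.15), Igfbp2 by 1.79, the IGF-binding protein protease gene Pappa by 1.81 and Igf1r by 1.43. In the TGF-beta and BMP list, 11 of 23 were higher and 5 lower. The co-receptor gene Tgfbr3 rose by 2.89 (SE 0.10) and the latency protein gene Ltbp2 by 2.38 (SE 0.10), and the BMP receptor gene Bmpr1b fell by 2.02 (SE 0.13) without overlap. Axon guidance genes were higher for 16 of 26 and lower for 3. The semaphorin genes Sema5a, Sema3c and Sema6a rose by 2.67, 2.47 and 2.06, and the Slit2 ligand and its receptor gene Robo1 by 1.92 and 1.29.

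Apical and secretory genes were lower in basal cells for 18 of 20, with a median of -0.84. The membrane protease gene Tmprss2 fell by 3.04 (SE 0.17), Wfdc2 by 2.78 (SE 0.20), Ceacam1 by 2.20 (SE 0.29), and the matriptase gene St14 and its inhibitor gene Spint1 by 1.90 and 2.09. Slpi, a protease inhibitor gene, rose by 1.03 (SE 0.10, adjusted p = 1.09e-09), and Lcn2 by 1.03 (SE 0.21, adjusted p = 0.000239). Cd24a, whose protein set the gate, measured 11.05 to 11.79 in the basal samples (median 11.48), against 11.56 to 12.15 in the luminal samples (median 11.82). It fell by 0.42 (SE 0.14, adjusted p = 0.0158), and that call was lost without the CD49fHigh samples. Epithelial polarity and splicing genes were lower for 11 of 14 and higher for none. Mal2, a protein of apical transport, fell by 3.35 (SE 0.15), the recycling GTPase gene Rab25 by 1.88 and the splicing factor genes Esrp2 and Esrp1 by 1.08 and 0.78.

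Milk genes were lower in basal cells for 10 of 13 and higher for 1. Csn2, the beta-casein gene, measured 5.28 to 10.18 in the basal samples (median 6.98), against 6.10 to 11.93 in the luminal samples (median 10.20) and differed by -1.91 (SE 0.35, adjusted p = 6.27e-05). The wide and overlapping ranges held for Csn1s1 too, which fell by 1.91 (SE 0.44). Xdh, which encodes xanthine dehydrogenase, a milk fat globule protein, moved against the list by 0.31 (SE 0.11), a call lost in 8 of 33 alternative analyses. Hormone-sensing genes were lower for 6 of 11 and higher for 4. Prom1 fell by 2.67 (SE 0.14) and Cited1, an estrogen receptor co-activator gene, by 2.15 (SE 0.12), while the vitamin D receptor gene Vdr rose by 1.13 (SE 0.10).

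**Figure D3:**
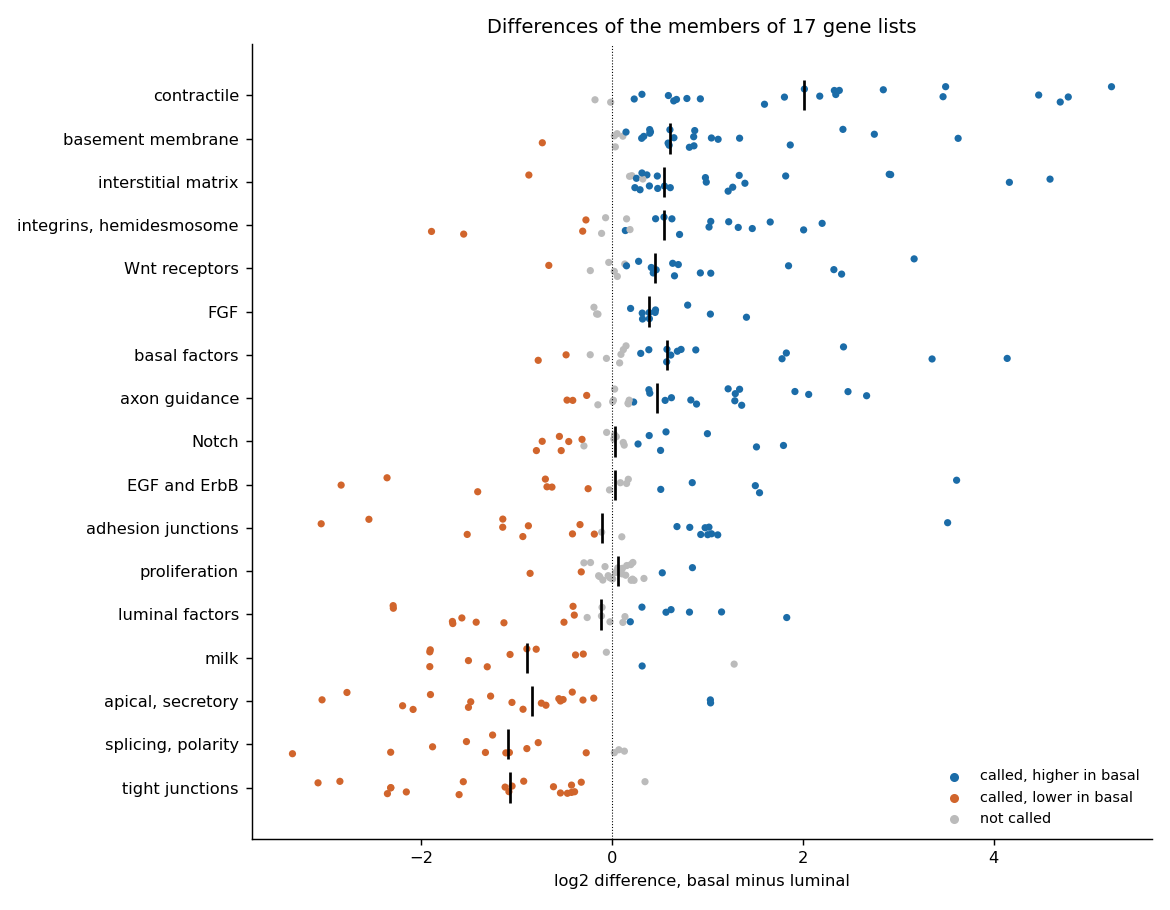
Log2 difference, basal minus luminal (horizontal axis), of the members of 17 gene lists (rows); each point is a gene, coloured by its call, and black lines are list medians. The contractile median lies at 2.01 and the tight junction median at -1.07, while Notch, EGF and ErbB, adhesion junction and luminal factor members lie on both sides of 0.

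Mean luminal levels hid a split between the luminal gates for some genes. Egfr measured 8.47 to 9.0 in basal samples, 8.26 to 8.77 in Sca1- and 5.80 to 6.15 in Sca1+ luminal samples. CD49fLow cells exceeded Sca1- cells by 0.31 (adjusted p = 0.0268) and Sca1+ cells by 2.84 (adjusted p = 4.89e-19). For CD49fHigh cells the same differences were 0.16 (adjusted p = 0.333) and 2.69 (adjusted p = 8.73e-18). The background shares called were 21.5% for CD49fLow against Sca1- cells (10.1% higher in CD49fLow), 31.3% for CD49fLow against Sca1+, 23.5% for CD49fHigh against Sca1- and 31.7% for CD49fHigh against Sca1+. These pairs share samples and the differences between them were not tested.

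Igfbp5 and Thbs1 had the same order as Egfr. Igfbp5 measured 10.32 to 11.17 in basal, 9.28 to 11.04 in Sca1- and 6.54 to 7.91 in Sca1+ samples. Thbs1, the thrombospondin gene, measured 10.60 to 11.83, 10.20 to 11.23 and 7.63 to 8.34 in the same order of groups. The integrin gene Itgb8 was -0.11 in CD49fLow minus Sca1- cells (adjusted p = 0.781) and 3.14 in CD49fLow minus Sca1+ cells (adjusted p = 2.65e-13), and Lcn2 was -0.44 (adjusted p = 0.339) and 2.56 (adjusted p = 2.86e-08). For these genes a single basal and luminal contrast averages a small and a large difference.

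The reverse order held for genes of alveolar and progenitor cells. Elf5, a factor of the alveolar lineage, measured 5.32 to 6.96 in basal samples, 8.52 to 9.50 in Sca1- and 5.36 to 6.32 in Sca1+ samples. The stem cell factor receptor gene Kit measured 5.64 to 6.66, 8.70 to 9.49 and 5.67 to 6.15 in those groups. CD49fLow minus Sca1- was -3.21 for Elf5 (adjusted p = 2.19e-13) and -3.07 for Kit (adjusted p = 2.15e-13), against -0.12 (adjusted p = 0.727) and 0.06 (adjusted p = 0.87) for CD49fLow minus Sca1+. Muc1, Btn1a1 and Aldh1a3 likewise were called against Sca1- cells (-2.34, -2.49 and -2.54) and not against Sca1+ cells (-0.03, -0.12 and -0.03). Of 9 luminal progenitor genes, 6 were lower in basal cells and none without overlap.

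The growth factor gene Tgfb2 and the FGF receptor gene Fgfr2 changed sign with the luminal gate. Tgfb2 was -1.20 in CD49fLow minus Sca1- cells (adjusted p = 8.69e-07) and 1.05 in CD49fLow minus Sca1+ cells (adjusted p = 4.74e-06). Fgfr2 was 0.65 (adjusted p = 0.000307) and -0.91 (adjusted p = 1.51e-06) in the same pairs. Neither gene was called in the averaged comparison, where the differences were -0.07 and -0.16. Cited1 was lower in basal cells than in either gate and measured 5.94 to 7.27 in basal, 7.61 to 8.20 in Sca1- and 9.14 to 9.85 in Sca1+ samples.

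**Figure D4:**
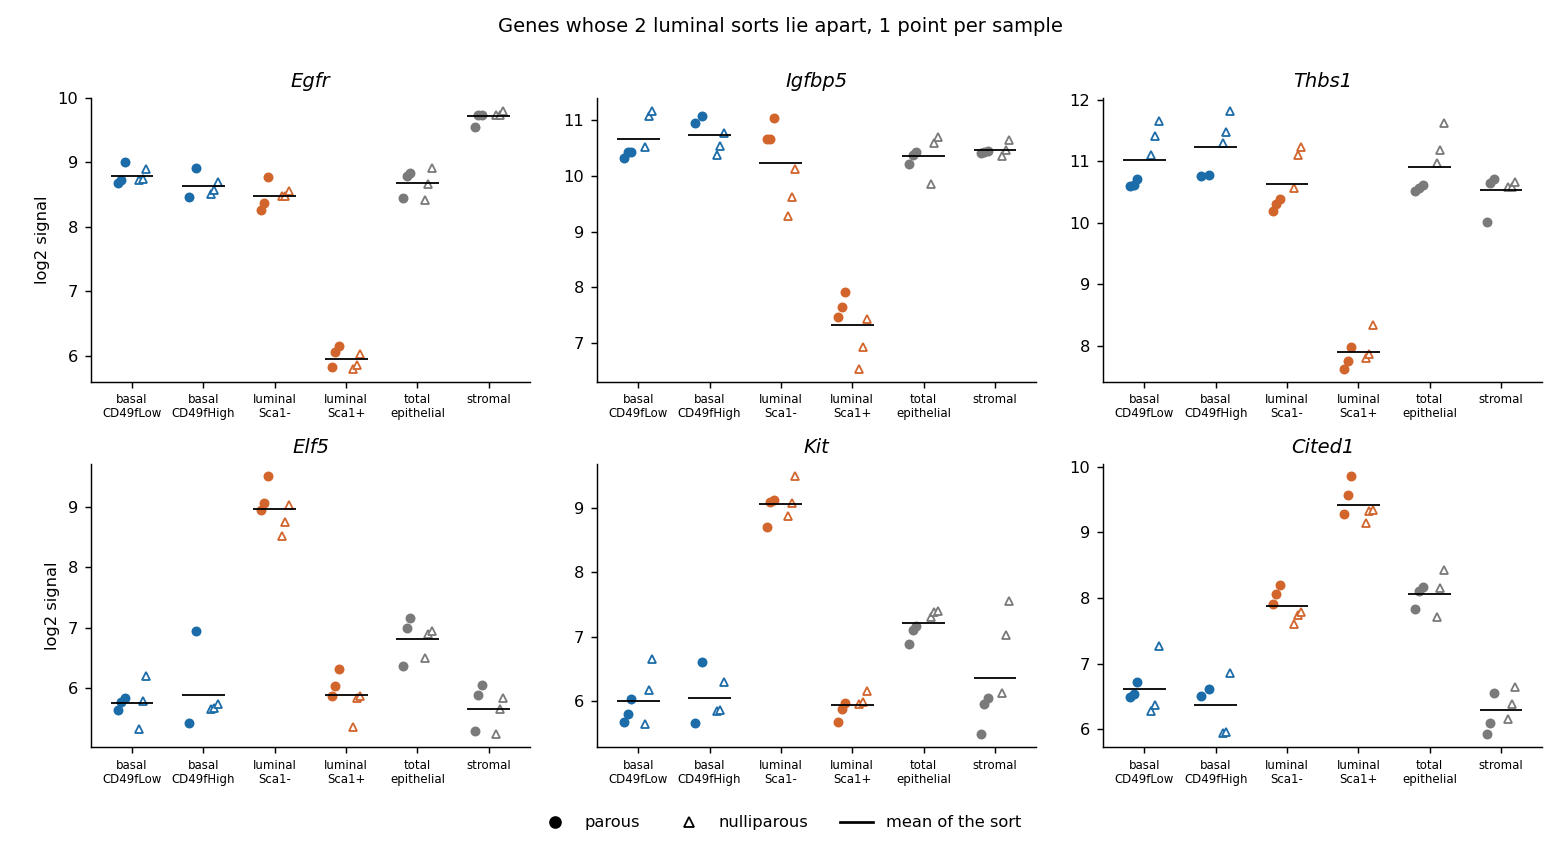
Log2 signal (vertical axis) of 6 genes in each sample by sort (horizontal axis), symbols as in the plot of the marker genes. Egfr, Igfbp5 and Thbs1 are near basal levels in Sca1- and low in Sca1+ luminal samples, Elf5 and Kit are high in Sca1- samples alone among the 4 basal and luminal sorts, and Cited1 is above the basal samples in both luminal gates.

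Proliferation genes gave few differences: 2 of 29 were higher (Mcm4, 0.84, and Rrm2, 0.53), 2 were lower (Mcm6, -0.86, and Gins2, -0.32) and 25 were not called, Mki67 among them (0.09, SE 0.20). Immediate early and heat shock genes were higher in basal cells for 13 of 19 and lower for 2, with a median of 0.32. Nr4a1 rose by 1.13 and Fos by 0.37, a call lost without the CD49fHigh samples. Of 17 lipid metabolism genes, 5 were higher and 6 lower; the desaturase gene Scd1 fell by 1.78 and the fatty acid carrier gene Fabp5 rose by 1.23.

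The basal and luminal difference was also taken in each history alone. In parous mice 5373 genes were called (26.9%), and in nulliparous mice 4971 (24.9%). Of these, 3317 were called in the same direction in both, which is 61.7% of the parous and 66.7% of the nulliparous calls, and 29 in opposite directions. These contrasts share no sample. The difference of the differences, parous minus nulliparous, was called for 406 genes (2.04%), positive for 138 (0.692%) and negative for 268 (1.34%), with 2860 at an unadjusted p under 0.05. Without the 5 CD49fHigh samples that count was 140, 27 positive and 113 negative, and 93 of the 406 were called in both analyses. That analysis has fewer samples as well as a gate less.

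Among keratins, the basal and luminal difference changed with history for Krt15 and Krt14, and Krt14 (-1.09) lost its call without the CD49fHigh samples. Krt14 measured 10.91 to 11.22 in parous and 10.97 to 11.18 in nulliparous basal samples. In luminal samples it measured 8.13 to 8.8 in parous and 6.47 to 8.52 in nulliparous mice. For Krt15, parous basal samples measured 8.05, 7.14 and 7.37 in CD49fLow and 7.31 and 6.77 in CD49fHigh cells, while nulliparous basal samples measured 9.01 to 10.77. The 2 histories did not overlap in basal cells. Luminal samples measured 6.08 to 7.24 in parous and 6.56 to 7.61 in nulliparous mice. The basal and luminal difference was 0.49 in parous and 2.92 in nulliparous mice, and the change between them was -2.43 (SE 0.32, adjusted p = 3.32e-05). Without the CD49fHigh samples it was -1.93 (adjusted p = 0.00662). Krt5 differed by 4.34 and 4.94 in the 2 histories, a change of -0.60 that was not called (adjusted p = 0.0938).

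Emb, the gene of the cell surface protein embigin, had levels that differed between histories in both layers. Parous basal samples measured 8.64, 8.57 and 8.38 in CD49fLow and 9.52 and 8.42 in CD49fHigh cells, against 9.73 to 10.55 in nulliparous basal samples. In luminal samples the order was opposite, with 7.6 to 9.52 in parous and 5.41 to 8.15 in nulliparous mice. The basal and luminal difference was 0.17 in parous and 3.61 in nulliparous mice, a change of -3.44 (SE 0.33, adjusted p = 2.82e-07). Serpinb11, a protease inhibitor family gene, measured 2.98 to 3.44 in all 5 parous basal samples, against 4.29 to 9.39 in nulliparous basal samples and 2.92 to 3.44 in all luminal samples, so its basal and luminal difference of 4.29 was present in nulliparous mice and was 0.06 in parous mice. The lowest nulliparous value belonged to CD49fLow replicate 1. Without the CD49fHigh samples the change between histories was -3.34 for Serpinb11 and was not called (adjusted p = 0.0609).

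Some matrix and IGF genes were among those with smaller differences in parous mice. Vcan, the versican gene, measured 6.88 to 8.70 in parous and 8.64 to 10.95 in nulliparous basal samples, ranges that overlap slightly, and its difference was 2.75 in parous and 5.01 in nulliparous mice, a change that was not called without the CD49fHigh samples (adjusted p = 0.181). Igfbp3 differed by 2.90 and 4.56, and Pappa by 0.98 and 2.65. Of 26 basement membrane genes, 7 changed in this direction and none in the other, and of 13 IGF genes 5 and none. Interstitial matrix genes were split, with 2 of 25 changed in this direction and 2 in the other. Over all genes, 1.34% had a negative change called and 0.692% a positive one. Lgr5 differed by 2.68 and 3.65, a call lost without the CD49fHigh samples.

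Larger differences in parous mice were called for Nrcam, Oxtr and 3 of 23 contractile genes. Nrcam, a neuronal cell adhesion gene, measured 6.09, 6.62 and 6.23 in parous CD49fLow and 6.88 and 6.23 in parous CD49fHigh samples, against 4.48 to 5.22 in nulliparous basal samples, with no overlap. All luminal samples measured 4.11 to 4.62, and the change between histories was 1.87 (SE 0.17, adjusted p = 1.22e-07). Oxtr measured 6.18, 6.78, 6.26, 7.11 and 7.53 in parous basal samples, against 5.49 to 6.59 in nulliparous basal samples. Its basal and luminal difference was 1.42 in parous (adjusted p = 1.03e-07) and 0.37 in nulliparous mice (adjusted p = 0.0969). Of 23 contractile genes 3 changed in this direction and none in the other, Synm by 1.30. Over all genes, 0.692% had a positive change called and 1.34% a negative one. Oxtr and Synm lost their calls without the CD49fHigh samples, at 0.457 (adjusted p = 0.533) and 0.571 (adjusted p = 0.198). Acta2, Myh11, Trp63 and Cldn3 changed by -0.20, 0.03, -0.05 and 0.12, none of them called.

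**Figure D5:**
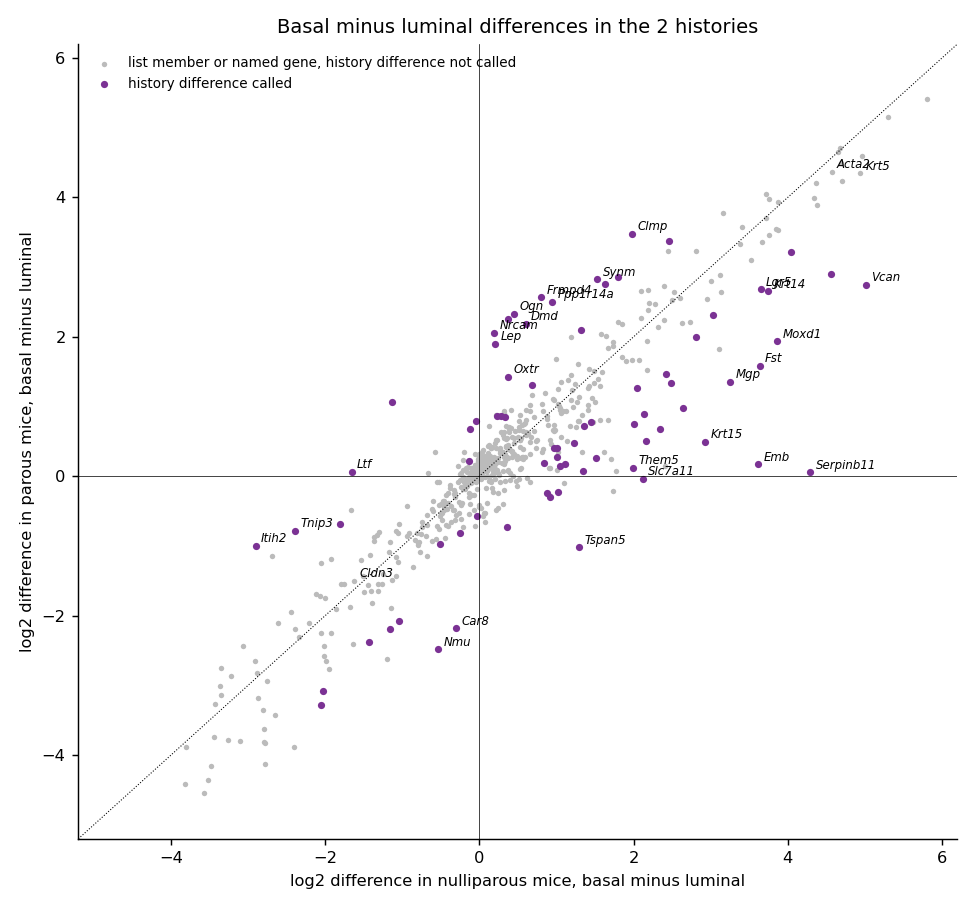
Log2 difference, basal minus luminal, in parous mice (vertical axis) against the same in nulliparous mice (horizontal axis), for the members of the gene lists and the named genes; purple points are genes whose difference of differences was called and the dotted line marks equality. Krt5, Acta2 and Cldn3 lie near the line, Serpinb11, Emb and Krt15 near 0 in parous mice alone, and Nrcam, Lep and Ogn near 0 in nulliparous mice alone.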

How the data were processed

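RNA of sorted mouse mammary cells was amplified and hybridised to 35 Affymetrix arrays, per the labels' protocols. The deposited table holds log2 values per probe set (1.74 to 13.28; sample medians 5.813 to 5.924). The R package affy is named in the submitters' processing notes; the sources used here give no version, background correction or normalization. Per the labels' protocols, 1 parous CD49fHigh replicate was left out because it did not hybridise.

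Of 34760 probe sets, 21640 carried 1 gene symbol, 1321 several and 11799 none in the platform annotation; only the first kind was used, and each of 954 genes with several such probe sets was represented by its brightest, giving 19937 genes. An Entrez match to RefSeq was found for 21553 probe sets and changed no symbol. The deposited log2 values were fitted with limma 3.58.1 (R 4.3.3), lmFit and eBayes with a trend, as 12 group means over all 35 samples. Contrasts weighted groups equally, p-values were adjusted by Benjamini-Hochberg over all genes, and the fit was tested on simulated data. Tables and figures used Python 3.11.15, pandas 2.3.3 and matplotlib 3.10.9. Replicates are pools of 5 mice, so p-values measure the spread between pools. The main fit took samples that share a replicate number as independent.

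The members and the 38 gene lists, 9 of them for other cell types, were chosen with earlier results of these data known. Named were the 20 largest changes without overlap in each direction, the 6 largest called members of each list and direction, called members moving against a list's name, members of lists of up to 10 genes, a panel of known genes, and the 12 largest changes with history in each direction. Predicted and numbered family symbols were left out of the first class. Some uncalled list members were named after their values were seen, as were the motifs and the genes set out by luminal gate. Alternatives were no trend, array weights, quantile normalization, a level filter, the mean of probe sets, the 23 samples alone, a replicate block, no CD49fHigh samples and leaving out each sample in turn.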

Additional observations from a re-analysis of the deposited data

Results flagged for a closer look

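The basal minus luminal difference changed between histories for 34 named genes, by a test of the difference itself in the limma fit (adjusted p under 0.05). Each value is the parous minus the nulliparous difference in log2 units. It was negative and also called without the CD49fHigh samples for Emb (-3.44), Krt15 (-2.43), Tspan5 (-2.31), Nmu (-1.95), Moxd1 (-1.92), Mgp (-1.89), Igfbp3 (-1.65), Igfbp5 (-0.95), Pappa (-1.66) and Grhl1 (-1.03). It was positive and also called without them for Itih2 (1.9), Ogn (1.88), Nrcam (1.87) and Frmpd4 (1.77). Among these, Mgp is an inhibitor of tissue calcification, Pappa and Igfbp3 belong to the IGF axis, and Ogn encodes a small matrix proteoglycan.

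Without the CD49fHigh samples the adjusted p was 0.05 or more for Serpinb11 (-4.23), Vcan (-2.26), Slc7a11 (-2.16), Fst (-2.05), Car8 (-1.88), Them5 (-1.87), Krt14 (-1.09), Lgr5 (-0.97) and Jag1 (-1.25). The same held for Gm12238 (2.21), Gm10457 (1.88), Ltf (1.72), Lep (1.69), Tnip3 (1.61), Dmd (1.58), Ppp1r14a (1.56), Clmp (1.5), Oxtr (1.06), Synm (1.3) and Aldh1a3 (1.12). Ltf (adjusted p = 0.0438) lost its call in 18 further alternatives, Lep in 2 and Gm12238 in 1. These genes were chosen as the largest changes or as members of the lists, and no cause of the changes was tested.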

How the results depend on the processing

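The 6983 calls between basal and luminal cells moved to between 6634 and 6984 when 1 sample was left out. The 406 calls for the change with history moved to between 311 and 588, the positive ones to between 102 and 240 (214 without parous CD49fHigh replicate 2, 240 without parous CD49fHigh replicate 3 and 210 without nulliparous CD49fHigh replicate 1) and the negative ones to between 207 and 374. Calls without overlap moved to between 939 and 1028. With the 23 samples alone, 81 changes with history were positive. Without the CD49fHigh samples, 140 genes changed with history, 27 positive and 113 negative, and calls without overlap numbered 1558, 870 higher and 688 lower, where fewer basal samples have to clear the luminal range.

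Quantile normalization gave 7612 calls, 4292 higher and 3320 lower, and quantile normalization over the named genes alone, chosen after seeing the data, gave 6950, 3192 higher and 3758 lower. In parous mice the first gave 3295 higher and 2513 lower, against 2396 and 2977 as deposited, and in nulliparous mice 2602 and 2369, against 2160 and 2811. The cause was not tested. With the replicate number as a block, 7270 genes (fixed term) or 7277 (random term) were called between basal and luminal cells and 551 or 521 for the change with history. Deviations of samples with the same number correlated at 0.0116 to 0.201 in parous mice (15 pairs, 4 over 0.1) and 0.035 to 0.338 in nulliparous mice (18 pairs, 12 over 0.1). Samples with different numbers correlated at -0.144 to 0.0638 in parous and -0.282 to 0.0716 in nulliparous mice. Deviations were taken from group means and cancel out within a group. The correlations between different numbers are therefore tied to the others and are not an independent baseline. Same-numbered samples deviated together weakly, with every correlation positive, a hint from the data of a shared pool or batch that the labels do not state. The block was kept as an alternative because not every pair exceeded 0.1, a bar that does not show same-numbered samples to be independent.

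Of 230 named genes, 205 were called, and 7 of these lost the call in at least 1 of 33 alternatives: Gata3, Bcl11a, Xdh, Cd24a, Des, Fos and Itgb1. Another 7 gained a call: Cldn12, Col1a1, Col3a1, Fgfr2, Krt20, Krt6b and Pdgfra. Of 34 named changes with history, 20 lost the call in at least 1 alternative. Among these named genes and named changes with history, no called value changed sign. Over all genes, 1 basal minus luminal call was opposite with the mean of probe sets, and 1 parous call without the CD49fHigh samples.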
